A study of Homo sapiens with 8 samples.

Results

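The 10 genes described here are known transcriptional targets of ATF4, chosen by name and found in the table by their Ensembl gene IDs. They are ASNS (ENSG00000070669), PHGDH (ENSG00000092621), PSAT1 (ENSG00000135069), MTHFD2 (ENSG00000065911), SLC3A2 (ENSG00000168003), SLC7A11 (ENSG00000151012), CHAC1 (ENSG00000128965), TRIB3 (ENSG00000101255), SESN2 (ENSG00000130766) and DDIT4 (ENSG00000168209). All 10 were among the 19580 transcripts, 1 per gene, of the deposited table, and all 10 were among the 11920 transcripts tested, those with a mean of at least 1 RPKM (reads per kilobase of transcript, scaled to the library total). The values are ribosome footprints, the stretches of mRNA that a ribosome shields from nuclease, from HAP1 cells, an adherent near-haploid line derived from a human chronic myeloid leukaemia line. The 4 groups were RNF14 knockout at 30 min, RNF14 knockout at 0 min, wild type (WT) at 30 min and wild type at 0 min, with 2 biological replicates each. RNF14 is a ubiquitin ligase that acts at stalled ribosomes. All cells of all groups had been given 5 uM 4-thiouridine (4SU), a uridine analogue that crosslinks RNA to protein under UVA, for 18 h and then 6 kJ/m2 of UVA, and were harvested 0 or 30 min later. Every library is thus from 4SU-labelled, irradiated cells, and the labels do not say whether the knockout is 1 clone or several.

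ATF4 is a transcription factor whose mRNA is translated better when initiation factor eIF2 is phosphorylated, in the integrated stress response. It binds composite C/EBP-ATF elements as a dimer, often with a C/EBP protein, and is known for raising genes of amino acid synthesis and import, glutathione turnover and growth restraint. The comparisons ask how ribosomes were spread over its target genes in the minutes after crosslinking, and whether cells lacking RNF14 differed in this. No label gives a change to ATF4 itself, so the naming of the 10 genes as its targets is background and was not tested. Footprints alone were used, so an mRNA level and its translation cannot be told apart, nor can fewer cells and less RNA per cell.

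To show where letters of the ATF4 element stand at these genes, 9 of the 10 were matched by symbol to RefSeq promoters of 300 bases (GRCh38.p14), running from 250 before to 50 after a gene start. SLC7A11 was not matched. The letters TGATGNAA, which fit the composite element, were found on either strand in at least 1 listed promoter of 3 of the 9 genes, ASNS, CHAC1 and SLC3A2, against 4.46% of 27305 genes. Counted by promoter, 3 of the 14 listed for these genes held it, against 3.62% of 35116. Their stretches are shown 5′ to 3′ on the strand of the gene, with the matched letters, or their reverse complement, in capitals.
ASNS: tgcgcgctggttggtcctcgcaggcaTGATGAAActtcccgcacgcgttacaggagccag
CHAC1: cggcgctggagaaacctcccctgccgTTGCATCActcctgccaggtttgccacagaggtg
SLC3A2: aatgtgcaggactccTTACATCAgctcc
The ASNS stretch is chr7:97872443-97872502 on the minus strand, and its match lies at positions -68 to -61, counted from 1 of the 2 listed starts, which is inside the annotated gene. The CHAC1 stretch is chr15:40953236-40953295 on the plus strand, with the match at positions -209 to -202. The SLC3A2 stretch is chr11:62881721-62881748 on the plus strand and lies after 1 of its 3 listed starts, with the match at positions 38 to 45 counted from that start. A match is a description of letters and not a bound site, and a promoter without one says nothing about ATF4 at that gene. In the same build the genes most followed here lie at chr7:97851677-97928441 (ASNS), chr1:119711934-119744215 (PHGDH), chr9:78297125-78330093 (PSAT1), chr2:74198615-74217565 (MTHFD2) and chr11:62856109-62888860 (SLC3A2).

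Footprint totals ran from 323946 reads, in knockout 30 min replicate 1, the library with an unexplained suffix in its column name, to 1241975, in knockout 0 min replicate 1. All 4 libraries at 30 min held fewer reads than all 4 at 0 min, so depth and recovery time cannot be told apart. Replicates correlated with Pearson's r from 0.900, in the knockout at 30 min, to 0.965, in the knockout at 0 min, across the tested transcripts. RPKM times length gave whole reads for all values, and between 455 and 1979 reads per library fell on the 10 genes. RNF14 footprints and markers of the cell line were not checked here, since the files pair gene IDs with no names.

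The 10 genes covered a wide span of levels. On the RPKM scale, which is per length, SLC3A2 was first in every group, with 316 ± 23.5 RPKM at 30 min and 417 ± 11.2 RPKM at 0 min in knockout cells, and 249 ± 2.24 RPKM at 30 min and 335 ± 71.2 RPKM at 0 min in wild-type cells (SD, n = 2 each). SLC3A2 is the heavy chain that carries several amino acid transporters to the cell surface. SLC7A11, which pairs with it to import cystine in exchange for glutamate, was last in every group, between 4.42 and 8.92 RPKM. Between them, ASNS, PHGDH, PSAT1 and MTHFD2 lay between 34.2 and 91.8 RPKM in all libraries, TRIB3 between 18.6 and 31.4, SESN2 between 12.2 and 27.6, DDIT4 between 8.31 and 20.0 and CHAC1 between 9.29 and 20.4 RPKM. Among all tested transcripts the mean level of SLC3A2 was at the 97.9th percentile and that of SLC7A11 at the 31.1st. The lengths are of whole transcripts, untranslated regions included, so levels are not per coding base. That of SLC7A11 is 9645 nt, and that of SLC3A2 is 1993 nt.

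Neighbours in this order often could not be separated. The replicates of PSAT1 and PHGDH overlapped in the knockout at 30 min and in wild type at both times, and those of DDIT4 and CHAC1 overlapped in all 4 groups. Reads set how finely a gene could be followed: SLC3A2 had 4035 reads over the 8 libraries and MTHFD2 1309, while CHAC1 had 110 and DDIT4 134, with as few as 8 and 6 in 1 library. In DDIT4 the higher replicate was 1.57 to 2.13 times the lower one in every group.

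**Figure D1:**
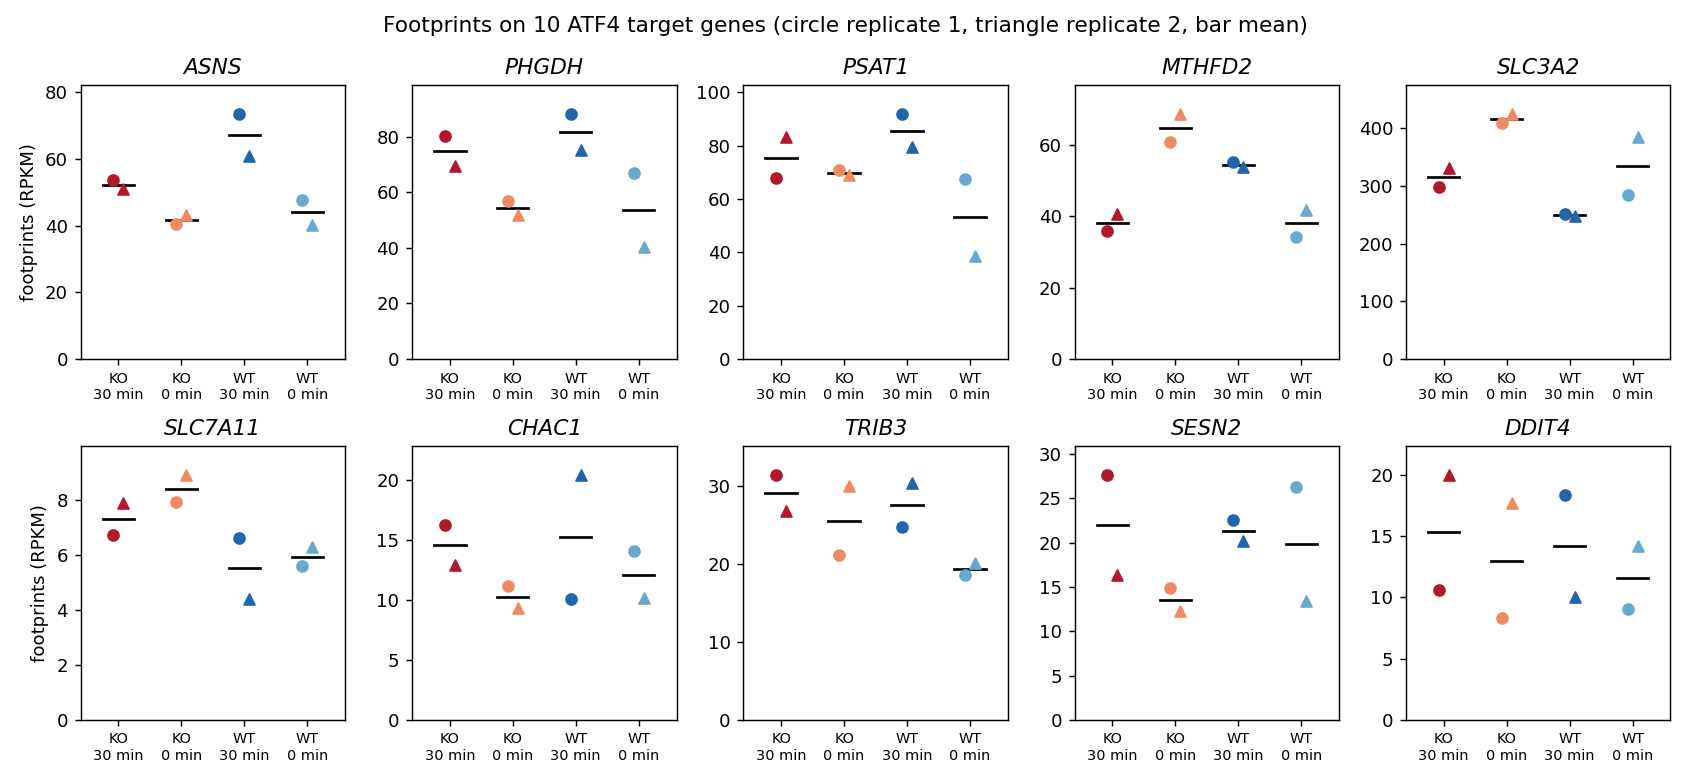
Footprints in RPKM (y axes, each from 0) of the 10 genes in each library, by group on the x axis. Circles are replicate 1, triangles replicate 2 and bars the mean of 2. ASNS and PHGDH are higher in all 4 libraries at 30 min than in all 4 at 0 min, and MTHFD2 is lower at 30 min in the knockout and higher at 30 min in wild type.

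The enzymes of asparagine and serine synthesis, ASNS, PHGDH and PSAT1, had higher mean footprint levels after 30 min in either genotype, without overlap of replicates except for PSAT1 in the knockout. SLC3A2 had lower ones, without overlap. These are measured levels, and none of the 10 passed the test in any comparison. The test was limma-trend, on log2(RPKM + 1), with p-values adjusted over all tested transcripts. At an adjusted p under 0.05 it called 0 of 10 in the knockout, where 1.97% of the tested transcripts were called, 0.646% as higher and 1.33% as lower. An unadjusted p below 0.05 was reached by 2 of 10, against 18.4% of the tested transcripts, and voom, limma's method for counts, called 0 on the reads recovered, against 2.79%. In wild type limma-trend called 0 of 10, against 3.23% of the tested transcripts, 1.79% as higher and 1.44% as lower, while 5 of 10 had an unadjusted p below 0.05, against 20.9%, and voom called 4, against 7.26%. Averaged over genotypes it called 0 of 10, against 7.79%, of which 2.45% were higher and 5.34% lower. There 4 of 10 had an unadjusted p below 0.05, against 24.3%, and voom called 3, against 8.18%.

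The median tested transcript had a lower value at 30 min on the deposited scale, and the genes are best read beside that median. RPKM is scaled to the library total, so the table as a whole cannot fall. Over all tested transcripts the median log2 change was -0.12 in the knockout and -0.26 in wild type, and 41.3% and 31.0% of them had a positive change. With voom the medians were -0.01 in the knockout and -0.05 in wild type. The libraries at 30 min were also the shallower ones, and the part of depth in these medians was not tested. Of the 10 genes, 7 had a positive change in the knockout and 8 in wild type, with medians of 0.22 and 0.37 on the log2 scale. These counts depend on the scaling: TPM gave 6 in the knockout and 5 in wild type, while median centring, quantile normalization and voom each gave 7 and 9. In wild type 9 of the 10 lay above the median of all tested transcripts, SLC3A2 being the exception, and in the knockout 7 did, the others being SLC7A11, MTHFD2 and SLC3A2. The counts above the median were also 9 in wild type and 7 in the knockout under each of these scalings. The members' counts and medians describe these genes and were not tested as a set.

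ASNS makes asparagine from aspartate with the amide of glutamine. It had 53.7 and 50.8 RPKM in the knockout at 30 min, against 40.3 and 43.1 in the knockout at 0 min. In wild type it had 73.3 and 60.8 RPKM at 30 min, against 47.7 and 40.2 at 0 min. Each library at 30 min was thus above each library at 0 min, an order shared by 3.17% of the tested transcripts. The opposite order was seen for 10% of them and for 0 of the 10 genes. Within one genotype, replicates were higher without overlap for 4 of the 10 in the knockout (ASNS, CHAC1, SESN2 and PHGDH), against 18.6%, and for 5 in wild type (ASNS, TRIB3, PSAT1, PHGDH and MTHFD2), against 14.0%. The log2 change was 0.32 in the knockout (SE 0.21, limma adjusted p = 0.447) and 0.60 in wild type (SE 0.21, limma adjusted p = 0.140). Averaged over genotypes it was 0.46, with a 95% interval from 0.14 to 0.78 and a limma adjusted p of 0.0840. That adjusted p ran from 0.0102, with voom, to 0.256 over 18 alternatives, and it was below 0.05 after median centring of each library (0.0401), after quantile normalization (0.0289) and with voom.

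PHGDH, the first enzyme of serine synthesis from glycolysis, followed the same order. It had 80.4 and 69.4 RPKM in the knockout at 30 min, against 56.9 and 51.9 in the knockout at 0 min, and 88.1 and 75.1 RPKM in wild type at 30 min, against 66.8 and 40.5 in wild type at 0 min. It was the only other of the 10 with each 30 min library above each 0 min library. The log2 change was 0.45 in the knockout (SE 0.25, limma adjusted p = 0.370) and 0.63 in wild type (SE 0.25, limma adjusted p = 0.185). The average over genotypes was 0.54, with a 95% interval from 0.15 to 0.93 and a limma adjusted p of 0.0894, which ran from 0.00459 to 0.260 over the alternatives. The 2 libraries of wild type at 0 min set the size in wild type: the log2 change there was 0.99 without replicate 1 and 0.28 without replicate 2, and without wild type 0 min replicate 1 the average had a limma adjusted p of 0.0268.

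PSAT1, the aminotransferase that acts on the product of PHGDH, had 67.8 and 83.3 RPKM in the knockout at 30 min, against 70.8 and 69.2 in the knockout at 0 min. In wild type it had 91.8 and 79.6 RPKM at 30 min, against 67.6 and 38.7 at 0 min. The groups overlapped in the knockout and not in wild type. The log2 change was 0.10 in the knockout (95% interval -0.48 to 0.68, limma adjusted p = 0.875) and 0.73 in wild type (95% interval 0.15 to 1.31, limma adjusted p = 0.150). The wild-type change rested on wild type 0 min replicate 2: it was 0.33 without that library, and 1.13 without replicate 1, where the limma adjusted p was 0.0487. Over 19 alternatives this adjusted p ran from 0.00844, with voom, to 0.455. The difference between the genotypes' recoveries was -0.63, with a 95% interval from -1.45 to 0.19, and was not called.

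MTHFD2 was the one gene of the 10 whose replicates ran without overlap in opposite directions in the genotypes. As deposited it was also the only one with opposite signs, but this depended on the scaling. Under TPM, PSAT1 had them in the same direction as MTHFD2, and CHAC1, SESN2 and DDIT4 in the reverse direction. SLC7A11 had them under median centring, quantile normalization and voom. MTHFD2 is the mitochondrial enzyme that oxidises one-carbon units carried by folate, downstream of serine. In the knockout it had 35.8 and 40.6 RPKM at 30 min, against 60.7 and 68.5 at 0 min. In wild type it had 55.1 and 53.7 RPKM at 30 min, against 34.2 and 41.8 at 0 min. Replicates did not overlap in either genotype, and this pattern, lower in the knockout and higher in wild type, held for 3.08% of the tested transcripts. The levels crossed, so that the knockout at 30 min and wild type at 0 min, with means of 38.2 ± 3.39 and 38.0 ± 5.42 RPKM (SD, n = 2 each), lay together.

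The log2 change of MTHFD2 was -0.75 in the knockout (SE 0.21, limma adjusted p = 0.0953) and 0.51 in wild type (SE 0.21, limma adjusted p = 0.199). Its reads numbered 133 at 30 min against 567 at 0 min in the knockout, so its share of the library was 0.605 times as large (exact 95% interval 0.497 to 0.732). In wild type they numbered 296 at 30 min against 313 at 0 min, 1.43 times the share (exact 95% interval 1.21 to 1.68). Both intervals reflect counting error alone. The difference of the recoveries, knockout minus wild type, was -1.26 on the log2 scale, with a 95% interval from -1.91 to -0.60. It had an unadjusted p of 0.00154 in limma and an adjusted p of 0.238. For this comparison limma-trend called 0 of 10, against 0.00839% of the tested transcripts, which is 1 transcript and is higher, and 1 of 10, MTHFD2, had an unadjusted p below 0.05, against 13.3%. With voom it was called, at an adjusted p of 0.0151, as were 0.579% of the tested transcripts. Over 18 alternatives the adjusted p ran from 0.0151 to 0.603 and the difference from -1.47 to -1.08, negative in all of them. Leaving out knockout 30 min replicate 1, the library with the unexplained column suffix, the difference was -1.17 (limma adjusted p = 0.264), and the change in the knockout was -0.66 (limma adjusted p = 0.223).

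**Figure D2:**
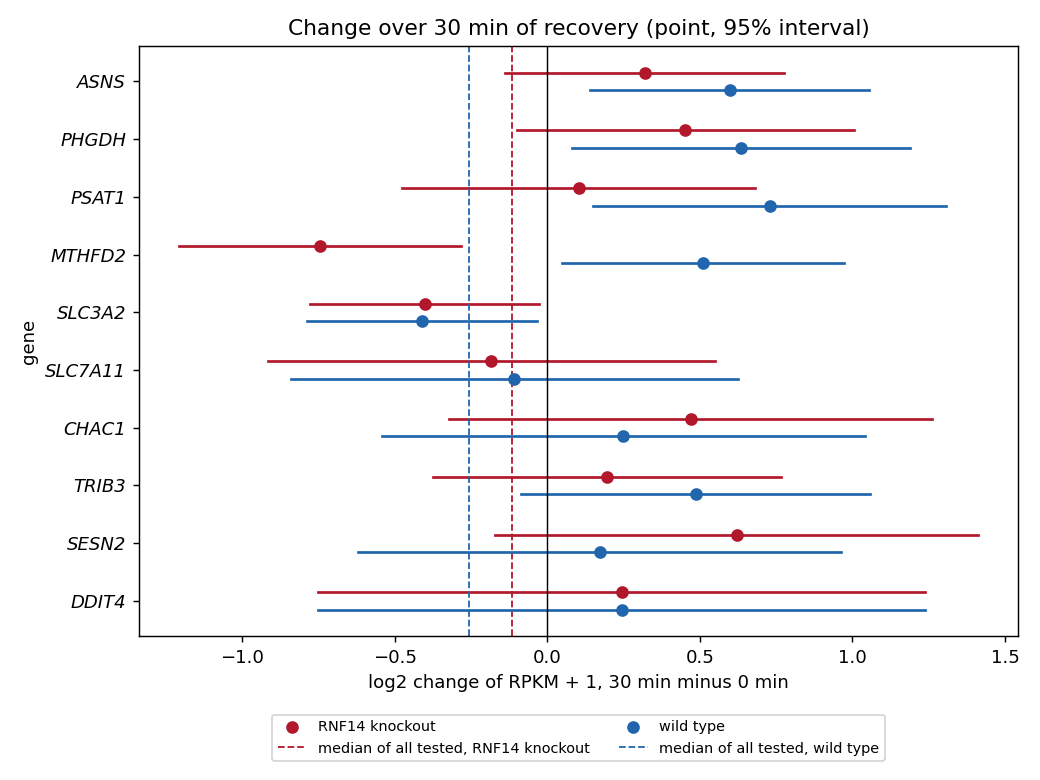
Log2 change of RPKM + 1, 30 min minus 0 min (x axis), for each gene (y axis) in RNF14 knockout (red, upper of each pair) and wild type (blue). Points are limma estimates, lines 95% intervals, and dashed lines the medians of all tested transcripts, -0.12 and -0.26. The 2 intervals of MTHFD2 do not meet, and both intervals of SLC3A2 lie below 0.

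SLC3A2 had lower levels at 30 min in both genotypes. It had 299 and 332 RPKM in the knockout at 30 min, against 409 and 425 in the knockout at 0 min, and 251 and 248 RPKM in wild type at 30 min, against 285 and 386 in wild type at 0 min. Replicates did not overlap within either genotype. Being lower without overlap was common: it held for 3 of the 10 genes in the knockout (SLC7A11, MTHFD2 and SLC3A2), against 30.9% of the tested transcripts, and for SLC3A2 as 1 of the 10 in wild type, against 38.9%. The log2 change was -0.40 in the knockout (SE 0.17, limma adjusted p = 0.243) and -0.41 in wild type (SE 0.17, limma adjusted p = 0.203). Averaged over genotypes it was -0.41, with a 95% interval from -0.67 to -0.14 and a limma adjusted p of 0.0674, the smallest of the 10 in that comparison. Relative to the median of all tested transcripts the averaged change was -0.22. Over 18 alternatives its adjusted p ran from 0.00403, with values rescaled to TPM, to 0.484, with median centring. The replicates of wild type at 0 min set its size: the log2 change in wild type was -0.63 without replicate 1 and -0.19 without replicate 2. The averaged change was then -0.51 (limma adjusted p = 0.0222) and -0.30 (limma adjusted p = 0.144).

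Its partner SLC7A11 had 6.72 and 7.90 RPKM in the knockout at 30 min, against 7.93 and 8.92 in the knockout at 0 min, and 6.64 and 4.42 RPKM in wild type at 30 min, against 5.59 and 6.30 in wild type at 0 min. The log2 changes were -0.18 in the knockout and -0.11 in wild type, with 95% intervals from -0.92 to 0.55 and from -0.84 to 0.63. A change of the size seen for SLC3A2 could therefore not be told from none for SLC7A11. SLC3A2 and SLC7A11 deviated together across the 8 libraries, with Pearson's r = 0.74.

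None of the genes that restrain growth or end the response, nor CHAC1, had an averaged interval that left out 0. TRIB3, a pseudokinase that ATF4 induces and that damps ATF4 in turn, had 31.4 and 26.8 RPKM in the knockout at 30 min, against 21.2 and 30.0 in the knockout at 0 min, and 24.8 and 30.4 RPKM in wild type at 30 min, against 18.6 and 20.1 in wild type at 0 min. Its groups overlapped in the knockout and not in wild type, and its averaged log2 change was 0.34, with a 95% interval from -0.06 to 0.75. SESN2, a leucine-binding inhibitor of the growth kinase mTORC1, had 27.6 and 16.4 RPKM in the knockout at 30 min, against 14.9 and 12.2 in the knockout at 0 min, and 22.5 and 20.1 RPKM in wild type at 30 min, against 26.3 and 13.4 in wild type at 0 min. Its 0 min replicates in wild type lay on both sides of its 30 min replicates.

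CHAC1, which breaks down glutathione, had 16.2 and 12.9 RPKM in the knockout at 30 min, against 11.1 and 9.29 in the knockout at 0 min, and 10.1 and 20.4 RPKM in wild type at 30 min, against 14.0 and 10.2 in wild type at 0 min. DDIT4, another inhibitor of mTORC1, had 10.6 and 20.0 RPKM in the knockout at 30 min, against 8.31 and 17.7 in the knockout at 0 min, and 18.4 and 9.99 RPKM in wild type at 30 min, against 9.01 and 14.2 in wild type at 0 min. The groups of CHAC1 overlapped in wild type and not in the knockout, and those of DDIT4 overlapped in both. For DDIT4 the replicates within each group lay further apart than any of the 4 group means. Averaged over genotypes, SESN2, CHAC1 and DDIT4 had log2 changes of 0.40, 0.36 and 0.24, with 95% intervals from -0.16 to 0.96, from -0.20 to 0.92 and from -0.46 to 0.95. All 3 intervals include 0 and reach past the changes measured for ASNS and PHGDH, so changes of that size could not be told from none.

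**Figure D3:**
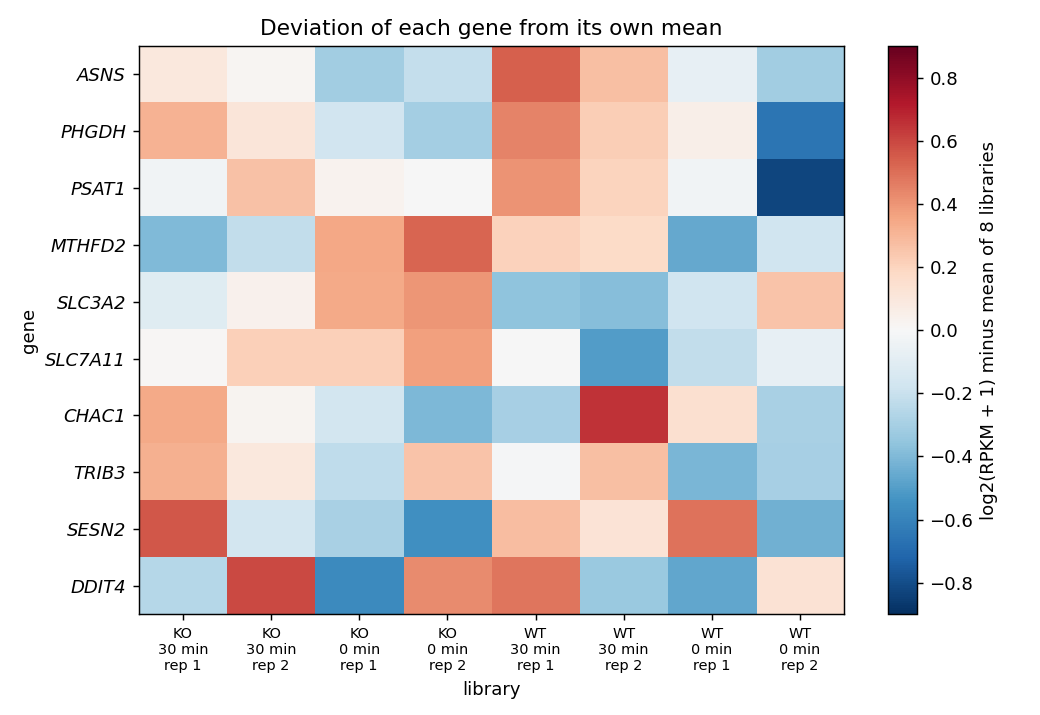
Deviation of log2(RPKM + 1) from the gene's own mean over 8 libraries (colour, red higher and blue lower), by gene (rows) and library (columns). ASNS is highest in both libraries of wild type at 30 min, and PHGDH in replicate 1 of that group. SLC3A2 is high in the knockout at 0 min where ASNS is low, and MTHFD2 is high in the knockout at 0 min and in wild type at 30 min.

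The 10 genes did not vary as 1 block. Over the 8 libraries 28 of 45 pairs of genes had a positive Pearson's r, with a median of 0.19 and a range from -0.89 to 0.87. The highest values were 0.87 for ASNS with PHGDH, 0.83 for PSAT1 with PHGDH and 0.79 for SESN2 with PHGDH, and the lowest were -0.89, -0.82 and -0.81 for SLC3A2 with ASNS, PHGDH and SESN2. These are descriptions over 8 libraries that share 2 times, 2 genotypes and their depths, with no test. Pairs of other transcripts were not set beside them, so the values cannot be called particular to these genes. Wild type 0 min replicate 2 held the lowest PSAT1 and PHGDH and the lowest ASNS of all 8 libraries, beside the highest SLC3A2 in wild type, so part of this pattern lies within 1 group.

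Between the genotypes MTHFD2 had the largest difference of the 10 at both times, with opposite signs, and no gene passed the test. At 0 min limma-trend called 0 of 10, against 0.168% of the tested transcripts, 0.134% as higher and 0.0336% as lower. There 1 of 10 had an unadjusted p below 0.05, against 13.6%, and voom called 1, against 6.71%. That gene was MTHFD2, with 60.7 and 68.5 RPKM in the knockout at 0 min, against 34.2 and 41.8 in wild type at 0 min. Its log2 difference was 0.76 (SE 0.21, limma adjusted p = 0.184), which lay at the 95.3rd percentile of the tested transcripts. Over 19 alternatives the limma adjusted p ran from 0.00539, with voom, to 0.677. Replicates did not overlap for 5 of the 10, all higher in the knockout: TRIB3, PSAT1, SLC7A11, MTHFD2 and SLC3A2. Of the tested transcripts 21.5% were higher without overlap and 29.4% lower without overlap.

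At 30 min limma-trend called 0 of 10, against 0.126% of the tested transcripts, 0.0839% as higher and 0.0419% as lower. There 1 of 10 had an unadjusted p below 0.05, against 10.9%, and voom called 0, against 0.185%. MTHFD2 was then lower in the knockout, at 35.8 and 40.6 RPKM, against 55.1 and 53.7 in wild type, a log2 difference of -0.50 (95% interval -0.96 to -0.04, limma adjusted p = 0.422). ASNS was also lower without overlap, at 53.7 and 50.8 RPKM in the knockout, against 73.3 and 60.8 in wild type, a log2 difference of -0.35 (95% interval -0.81 to 0.11, limma adjusted p = 0.565). Being lower without overlap held for 18.3% of the tested transcripts. SLC7A11 and SLC3A2 were higher without overlap, as were 20.2%.

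SLC3A2 was higher in the knockout, without overlap, at both times. Of the tested transcripts 20.2% were higher without overlap at 30 min and 21.5% at 0 min, and the share with both was not counted. The log2 difference of SLC3A2 was 0.34 at 30 min and 0.33 at 0 min. Averaged over times it was 0.33, with a 95% interval from 0.07 to 0.60 and a limma adjusted p of 0.347. The difference at 0 min ran from 0.11, with replicate 1 of wild type at 0 min left out, to 0.55, with its replicate 2 left out. SLC7A11 averaged 7.31 ± 0.835 RPKM in the knockout and 5.53 ± 1.57 in wild type at 30 min, and 8.43 ± 0.700 in the knockout and 5.94 ± 0.500 in wild type at 0 min (SD, n = 2 each). All 4 of its knockout libraries lay above all 4 wild-type libraries, as for 2.15% of the tested transcripts, and it was the only one of the 10 with that order. The reverse order held for 2.19% of the tested transcripts and for 0 of the 10. Its averaged log2 difference was 0.40, with a 95% interval from -0.11 to 0.92 and a limma adjusted p of 0.558. In this averaged comparison limma-trend called 0 of 10, against 0.378%, of which 0.252% were higher and 0.126% lower. There 1 of 10, SLC3A2, had an unadjusted p below 0.05, against 11.2%, and voom called 0, against 1.58%.

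**Figure D4:**
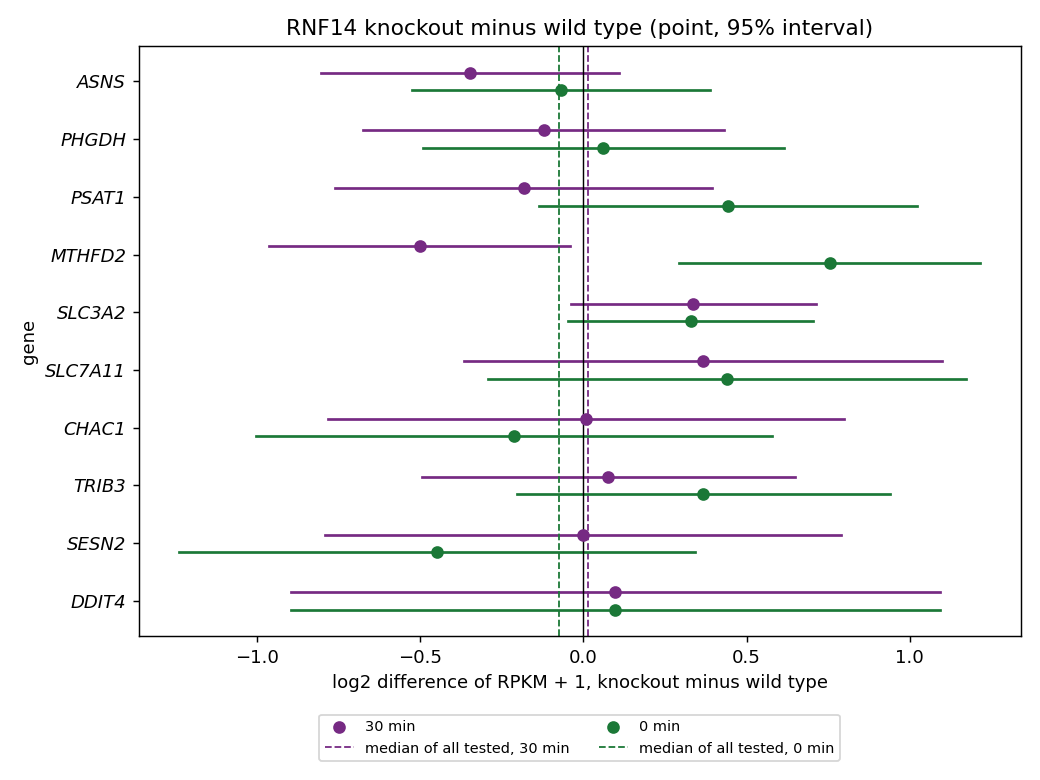
Log2 difference of RPKM + 1, RNF14 knockout minus wild type (x axis), for each gene (y axis) at 30 min (purple, upper of each pair) and 0 min (green). Points are limma estimates, lines 95% intervals, and dashed lines the medians of all tested transcripts at each time. MTHFD2 lies at -0.50 at 30 min and at 0.76 at 0 min, while SLC3A2 lies at 0.34 and 0.33.

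For the other genes the averaged differences were smaller than those of SLC3A2 and SLC7A11, with wide intervals. MTHFD2, with opposite signs at the times compared, had an averaged log2 difference of 0.13, with a 95% interval from -0.20 to 0.45. PHGDH had an averaged log2 difference of -0.03, with a 95% interval from -0.42 to 0.36, and PSAT1 one of 0.13, with an interval from -0.28 to 0.54. TRIB3, DDIT4, CHAC1, ASNS and SESN2 had averaged differences between -0.22 and 0.22. These p-values miss the threshold and do not show that the genotypes were alike.

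The 10 genes held 0.143% ± 0.00385 of all footprints in knockout cells at 30 min, against 0.164% ± 0.00674 in knockout cells at 0 min (SD, n = 2 each). In wild-type cells they held 0.141% ± 0.00701 at 30 min, against 0.133% ± 0.00673 at 0 min. SLC3A2 supplied between 34.3% and 56.0% of their reads in a library. Without it the other 9 genes held 0.0803% ± 0.000833 at 30 min, against 0.0811% ± 0.00451 at 0 min, in the knockout (SD, n = 2 each). In wild type they held 0.0912% ± 0.00657 at 30 min, against 0.0657% ± 0.00746 at 0 min. The 9 genes thus had more of the reads at 30 min than at 0 min in both replicates of wild type, while the replicates of the knockout at 30 min lay within the range of its replicates at 0 min. The knockout sum includes MTHFD2, whose share of the reads at 30 min was 0.605 times that at 0 min. SLC7A11 also had a lower share there, at 0.892 times, and the rest of the 9 had higher ones. A sum without MTHFD2 was not made. No test was made of these sums, whose members were chosen with earlier results known.

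**Figure D5:**
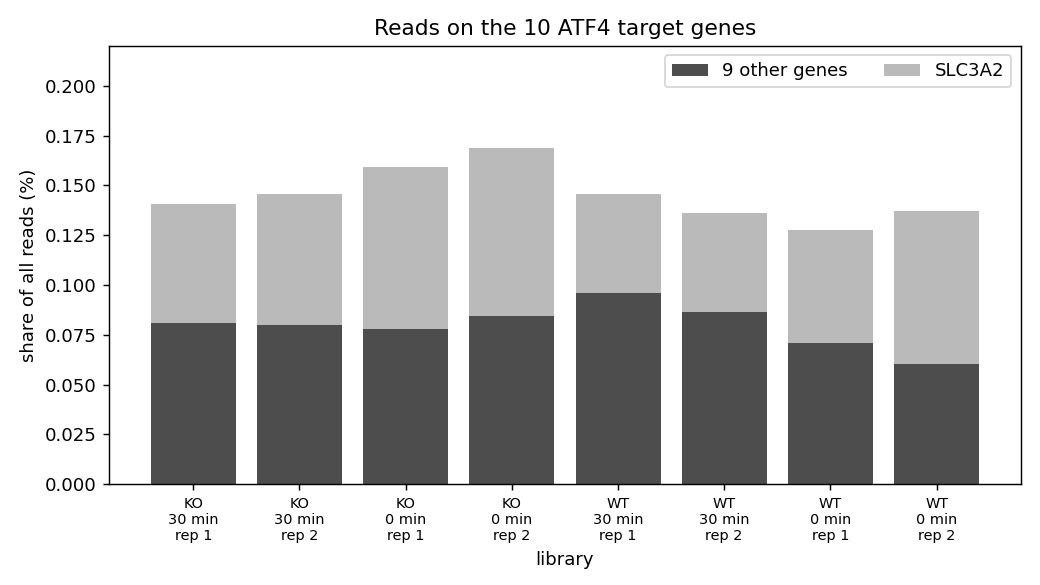
Share of all reads of a library, in percent (y axis, from 0), on the 10 genes, by library (x axis). Dark bars are the 9 genes other than SLC3A2 and light bars SLC3A2. The totals lie between 0.128% and 0.169%, and the dark bars of wild type are higher at 30 min than at 0 min.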

How the data were processed

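Ribosome footprints were measured in 8 libraries. The submitters' processing notes name STAR 2.7.10a, cutadapt and hg38. How transcripts were chosen and which bases were counted is unknown here. The authors deposited RPKM values, scaled to transcript length and library total. Within a tolerance of 0.05, RPKM times length gave whole multiples of 1 read for 100% of values, from which reads were recovered. For knockout 30 min replicate 1 the column name has an unexplained suffix, and the rest of the name matched that sample alone.

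Transcripts with a mean RPKM of at least 1 were tested by limma-trend (R 4.3.3, limma 3.58.1) on log2(RPKM + 1). The model had a mean for each of the 4 groups, used all 8 libraries and left 4 residual degrees of freedom. P-values were two-sided and Benjamini-Hochberg adjusted over all tested transcripts, with 0.05 as the threshold. Because of the pseudocount, changes of low genes are understated. P-values measure the spread between these libraries. Alternatives changed the pseudocount (0.1 or 5), the filter (none, or a mean of 5) or the scaling (TPM, median centring, quantile), added a replicate block, dropped the trend, used voom with trimmed-mean scaling, fitted only the groups compared, or left out each library. The fit was also run on simulated data with known changes, and the outcome is not reported here. Ratios of reads have exact (Clopper-Pearson) 95% intervals, which cover counting error only, since reads were summed over replicates. The spread between replicates is left out of them. They also treat each read as separate, and PCR copies were not told from separate molecules.

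The rule for named genes was all 10 members. The members and lists were chosen with earlier results of these data known. Lists of other ATF4 pathway genes, cell line markers and RNF14 were not used here: the gene table held 0 rows with an Ensembl ID. Python 3.11.15, numpy 2.4.6, pandas 2.3.3, scipy 1.17.1 and matplotlib 3.10.9 were used.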

Additional observations from a re-analysis of the deposited data

Results flagged for a closer look

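MTHFD2 was singled out because every library of the knockout at 30 min lay below every library of the knockout at 0 min, while every library of wild type at 30 min lay above every library of wild type at 0 min. The recovery in the knockout minus the recovery in wild type was -1.26 on the log2 scale (SE 0.29). The test of this difference, the interaction of genotype and time in limma-trend, gave an adjusted p of 0.238, and voom gave 0.0151, the lowest of 18 alternatives, which reached up to 0.603. Depth moved with time in both genotypes, and its part in the result was not tested. Leaving out each library in turn gave differences from -1.40 to -1.11. With 2 libraries in a group this cannot say which of them is the outlying one.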

How the results depend on the processing

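In limma-trend on the deposited scale 0 of the 10 genes were called in each of the 7 comparisons, and the replicate block also gave 0 in each. Same-numbered replicates did not deviate together, with correlations from -0.079 to 0.067 over 6 pairs of groups. These values give no sign of pairing, but they cannot show that same-numbered libraries were prepared apart. For recovery in the knockout, TPM scaling called 1 (MTHFD2, lower). For recovery in wild type, TPM scaling called 1 (SLC3A2, lower), median centring 1 (ASNS, higher) and voom 4 (ASNS, PHGDH, PSAT1 and MTHFD2, higher), and leaving out 1 library gave 0 to 1 (PSAT1). For recovery averaged over genotypes, TPM scaling called 1 (SLC3A2), median centring 2 and quantile normalization 2 (ASNS and PHGDH in both), voom 3 (also PSAT1), and leaving out 1 library gave 0 to 3, the 3 without wild type 0 min replicate 1 (PHGDH, PSAT1 and SLC3A2). Voom called 1 (MTHFD2) for knockout minus wild type at 0 min and 1 (MTHFD2) for the difference of recoveries. The median averaged recovery of all transcripts was -0.19 as deposited, -0.39 with TPM, -0.01 with median centring and -0.02 with quantile normalization. Of 1300 alternative values of single genes, 0 were called in the opposite direction, 21 crossed to called and 80 changed sign without a call. Changing the filter, adding the replicate block, dropping the trend or fitting only the groups compared left each log2 change as it was. So did leaving out a library of a group not in the comparison. Such alternatives could not change a sign, so 80 of 1300 is not a measure of stability. The letters TGATGCAA were found in 11.11% of the 9 matched genes (CHAC1), against 1.08% of all genes and 0.866% of all promoters, and TGATGNAA in 33.33% of the 9, against 4.46% and 3.62%. Depth limits CHAC1 and DDIT4 most, at 110 and 134 reads in all.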

Other observations

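The 2 chains of the cystine transporter and the 2 serine synthesis enzymes were also set against each other within a library, per length. The lengths are of whole transcripts, 1993 nt for SLC3A2 and 9645 nt for SLC7A11, so the size of a ratio is not per coding base. In reads over the 8 libraries, SLC3A2 had 4035 and SLC7A11 393. SLC3A2 had 44.5 and 42.0 times the RPKM of SLC7A11 in the knockout at 30 min, 51.6 and 47.6 times in the knockout at 0 min, 37.8 and 56.1 times in wild type at 30 min and 51.0 and 61.3 times in wild type at 0 min. SLC3A2 also serves other light chains, which were not examined here. The ratio of SLC3A2 to SLC7A11 was lower at 30 min without overlap in the knockout, while the times overlapped in wild type. PHGDH had 1.19 and 0.833 times the RPKM of PSAT1 in the knockout at 30 min, 0.804 and 0.750 times in the knockout at 0 min, 0.959 and 0.944 times in wild type at 30 min and 0.988 and 1.05 times in wild type at 0 min. This ratio was higher at 30 min without overlap in the knockout and lower without overlap in wild type, and the 2 replicates of the knockout at 30 min alone spanned most of its range.

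MTHFD2 had 0.445 and 0.584 times the RPKM of PHGDH in the knockout at 30 min, against 1.07 and 1.32 times in the knockout at 0 min. In wild type the ratio was 0.625 and 0.714 at 30 min, against 0.511 and 1.03 at 0 min, so the groups overlapped there. Whole-transcript lengths enter here too, 4403 nt for MTHFD2 and 1882 nt for PHGDH. All of these ratios were chosen after the values were seen. They were not tested and were not set against other pairs of transcripts.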
